A study of Mus musculus with 12 samples.

Results

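The 42 collagen genes measured on the arrays were examined in bone marrow-derived macrophages (BMDMs) with and without the selenocysteine tRNA gene *Trsp*. A gene was taken as a collagen if a probe set, a group of short probes that reports on one transcript, carried its symbol alone and the symbol had the form Col, number, a, number. Of 82 such probe sets, one was used for each gene, so that the collagens made up 42 of 18193 genes tested. By the assembly of their proteins, 11 were fibrillar, 8 belonged to the basement membrane (types IV, XV and XVIII) and 23 were of other kinds. These others comprised 5 type VI chains, 9 fibril-associated collagens (FACITs), 3 short-chain network collagens, 4 transmembrane collagens and a further 2, *Col7a1* and *Col26a1*. *Col28a1* and *Col6a6* were not analysed here.

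The study asked how the loss of selenoproteins changes macrophages at rest and after an inflammatory stimulus. There were 4 groups of 3 arrays each: unstimulated *ΔTrspM* cells, unstimulated control cells, *ΔTrspM* cells given lipopolysaccharide (LPS) for 4 h and control cells given LPS for 4 h. All mice were female, of strain c57bl6, and homozygous for floxed *Trsp*. *ΔTrspM* cells carried in addition one copy of LysM-Cre (Trspfl/fl-LysM-Cre+/-), which control cells lacked (Trspfl/fl-LysM-Cre-/-). Neither the age of the mice nor the dose of LPS for the arrays was stated in the sources used here. Bone marrow cells of all groups were grown for 7 days with M-CSF. The lysozyme M promoter drives Cre in macrophages and other myeloid cells, so that any cell of another lineage in a culture would be expected to keep *Trsp*. The labels call the replicates of a group biological, but do not say whether each came from a separate mouse, so the p-values cover only the spread among these cultures, part of which may be technical.

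Collagens are secreted proteins of 3 chains wound into a triple helix, and they give the extracellular matrix its tensile strength. Fibrillar collagens, chiefly types I, III and V, form the banded fibers of bone, skin and tendon and are made mainly by fibroblasts and osteoblasts. Type IV collagen forms the sheet-like network of basement membranes, and type VI forms beaded filaments close to cells. Macrophages are known chiefly for degrading and taking up collagen, although transcripts of some collagens have been described in them.

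Signals are given as log2(normalized signal + 16), on which an absent transcript lies near 4. A probe set's signal depends on its own probes, so a level is compared between samples of one gene and never between genes. The mean signal of an array before normalization was between 199.7 and 860.9. One array stood apart: in *ΔTrspM* cells given LPS, replicate 2 had 47.66% of its probe sets under a signal of 16, against 16.15% to 28.78% on the other arrays. Medians and counts after LPS that moved without it are given also without it. The 3'/5' signal ratio of actin, a measure of RNA integrity, was higher in *ΔTrspM* than in control cells in each same-numbered pair. That of *Gapdh* was higher in *ΔTrspM* cells for replicate 1 and lower for replicates 2 and 3, under both stimuli. The widest gap was that of replicate 2 given LPS, 0.68 in *ΔTrspM* and 0.88 in control cells. The part of RNA integrity in the results was not tested. No probe set used here carries the symbol *Trsp*, so the deletion was not checked. Of 12 macrophage core markers, 12 were measured and 0 had a mean log2 signal under 6. Their mean log2 signal lay between 12.64 and 12.92 on all unstimulated arrays and between 12.67 and 12.83 after LPS. Because the arrays read whole cultures, fewer cells of a type and less RNA per cell cannot be told apart.

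2 promoters are shown because their genes carry the main patterns of the data, the response to LPS (*Col27a1*) and the spread between replicates (*Col1a2*). Each sequence is the 250 bases before the start of the gene in RefSeq (GRCm38.p6, plus strand), with chr4:63215162-63215411 for *Col27a1* and chr6:4505368-4505617 for *Col1a2*. The capitals mark a match to the NF-kappaB consensus in *Col27a1*, at bases -183 to -174 from the start, and the letters CCAAT in *Col1a2*, at bases -109 to -105.
Col27a1: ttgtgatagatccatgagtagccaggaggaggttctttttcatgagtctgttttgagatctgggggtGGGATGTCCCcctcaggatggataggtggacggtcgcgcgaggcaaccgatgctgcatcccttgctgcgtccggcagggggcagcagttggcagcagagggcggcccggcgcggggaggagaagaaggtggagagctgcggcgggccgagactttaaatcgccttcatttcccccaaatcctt
Col1a2: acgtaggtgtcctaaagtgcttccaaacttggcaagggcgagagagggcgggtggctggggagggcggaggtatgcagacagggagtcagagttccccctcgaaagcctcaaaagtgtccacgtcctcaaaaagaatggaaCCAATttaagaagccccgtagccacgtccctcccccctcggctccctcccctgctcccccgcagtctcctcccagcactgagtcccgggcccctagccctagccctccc
Both motifs were searched on both strands, in windows of the same length for all genes, and neither match overlaps another motif searched. Of the 42 collagens, 33 had a promoter in the table, with 36 windows among them. The NF-kappaB consensus was found in 6 of these 36 windows (16.7%), those of *Col27a1*, *Col4a2*, *Col6a2*, *Col6a4*, *Col9a1* and *Col9a2*, and in 7.25% of the 32851 promoters of all genes. CCAAT was found in 13 of 36 (36.1%), against 33.8% of all promoters. A match describes the letters in the window and does not show that a factor binds there.

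The largest differences among the arrays of the leading fibrillar collagens lay between replicates, not between genotypes. *Col1a2*, which with *Col1a1* encodes type I collagen, read 11.61, 8.80 and 11.68 in unstimulated *ΔTrspM* cells (replicates 1, 2 and 3) and 10.55, 7.58 and 11.86 in unstimulated control cells. After LPS it read 11.07, 9.49 and 11.44 in *ΔTrspM* cells and 9.87, 8.57 and 9.99 in control cells. Replicate 2 was the lowest in all 4 groups, and the 12 arrays spanned a 19.3-fold range. *Col1a1* read 9.85, 7.31 and 10.18 in unstimulated *ΔTrspM* cells and 8.64, 6.54 and 11.03 in unstimulated control cells. After LPS its values were 9.64, 9.23 and 10.38 in *ΔTrspM* cells, all above the 8.56, 7.66 and 8.81 of control cells.

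*Col5a2*, a chain of the type V collagen that helps to set fibril width, read 10.02, 7.43 and 10.88 in unstimulated *ΔTrspM* cells and 8.73, 6.18 and 10.33 in unstimulated control cells. With LPS the values were 9.85, 8.23 and 10.80 in *ΔTrspM* cells and 8.38, 6.70 and 9.16 in control cells. It was higher in *ΔTrspM* cells in 3 of 3 same-numbered pairs under both stimuli, although the groups overlapped. *Col3a1*, which encodes the type III collagen of pliable tissues, read 8.27, 6.57 and 11.13 in unstimulated *ΔTrspM* cells and 8.34, 5.66 and 9.76 in unstimulated control cells, a spread between replicates wider than any difference between the groups. After LPS *Col3a1* read 8.81, 7.64 and 11.05 in *ΔTrspM* cells and 8.27, 6.24 and 9.46 in control cells. *Col5a1*, the partner of *Col5a2* in type V collagen, read 8.32, 7.04 and 8.90 in unstimulated *ΔTrspM* cells and 8.02, 6.88 and 8.50 in unstimulated control cells. Given LPS, *Col5a1* read 8.50, 7.64 and 8.91 in *ΔTrspM* cells and 7.71, 7.16 and 7.28 in control cells, where replicate 2 of *ΔTrspM* cells lay within the range of control cells.

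**Figure D1:**
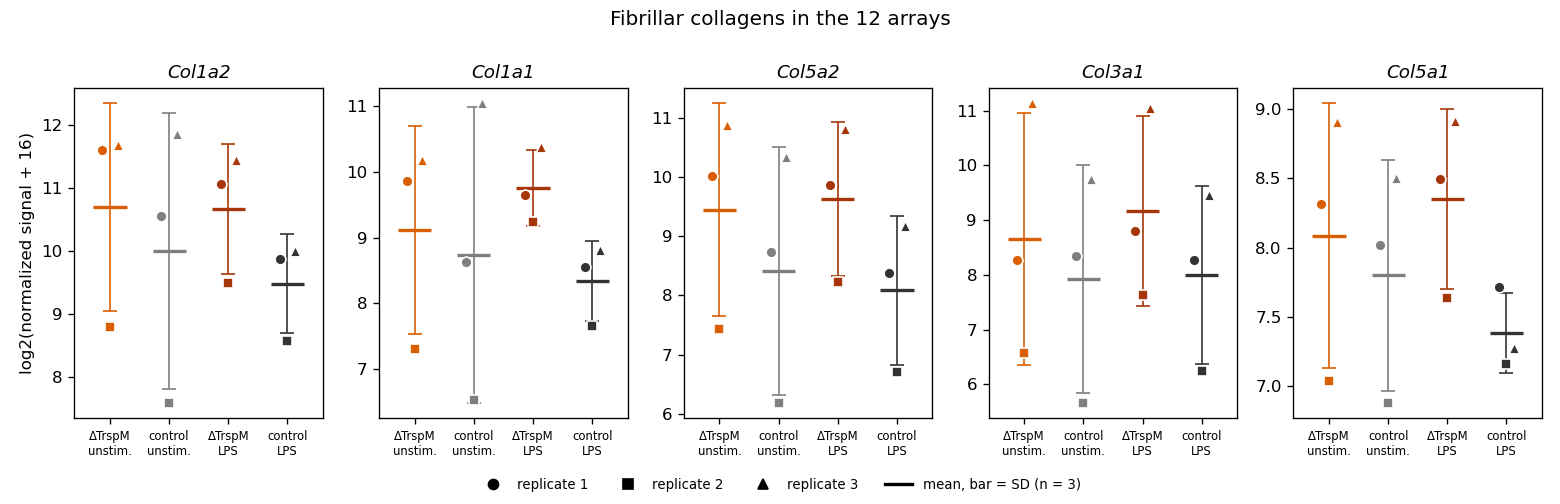
Log2(normalized signal + 16) of 5 fibrillar collagens on the 12 arrays, by genotype and stimulus; each symbol is 1 array, its shape the replicate number, the thick line the mean and the bar the SD (n = 3). Replicate 2 (squares) is the lowest array of every group for each of the 5 genes.

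No fibrillar collagen passed the test between genotypes. In unstimulated cells the log2 difference, *ΔTrspM* minus control, was 0.70 (SE 1.06) for *Col1a2*, 0.38 (SE 1.00) for *Col1a1*, 1.03 (SE 1.15) for *Col5a2*, 0.74 (SE 1.36) for *Col3a1* and 0.29 (SE 0.52) for *Col5a1*. After LPS it was 1.19 for *Col1a2*, 1.41 for *Col1a1*, 1.54 for *Col5a2*, 1.18 for *Col3a1* and 0.97 for *Col5a1*, with the same standard errors. The adjusted p over all genes (limma, Benjamini-Hochberg) was at least 0.90 for each of these 5 genes under both stimuli. When the replicate number was added as a block, the standard error of *Col5a2* after LPS was 0.31 and the adjusted p 0.232, still above the threshold of 0.05. *Col1a1* was the only fibrillar collagen whose arrays did not overlap between genotypes after LPS, and 0 of 11 did so in unstimulated cells.

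The remaining fibrillar collagens were those of cartilage and the minor chains. *Col11a1*, *Col24a1* and *Col2a1*, the main collagen gene of cartilage, had mean log2 signals over the 12 arrays of 5.60, 5.23 and 5.15, near the floor of the scale. *Col11a2*, a cartilage chain of type XI, had the smallest p of the fibrillar collagens in unstimulated cells. It read 6.07, 4.78 and 4.91 in *ΔTrspM* cells and 5.73, 6.18 and 6.82 in control cells, a log2 difference of -0.99 (SE 0.37, adjusted p = 1.00 by limma), and the groups overlapped. *Col27a1* and *Col5a3* are described with the response to LPS.

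Over the whole family the genotype gave 0 calls at an adjusted p of 0.05 in unstimulated cells, after LPS, and averaged over both stimuli. Of all genes tested by limma, 0% were called in unstimulated cells, 0.0110% (2 genes) after LPS and 0.0220% (4 genes) over both stimuli, so the count for the collagens does not set them apart. At an unadjusted p under 0.05 there were 2 collagens in unstimulated cells, both lower in *ΔTrspM* cells, and 3 after LPS, all higher in *ΔTrspM* cells. Of all 18193 genes, 204 were higher and 231 lower at that limma threshold in unstimulated cells, and 652 higher and 399 lower after LPS. The methods' t-test at their threshold of 0.01 gave 0 collagens under either stimulus, and 139 and 163 of all genes. The median log2 difference over the 42 collagens was 0.26 in unstimulated cells, with 30 of 42 above 0, and 0.13 after LPS, with 28 of 42 above 0. Over all genes the medians were 0.04 and 0.04, with 56.46% and 55.28% above 0. Fibrillar collagens had medians of 0.32 and 0.45, basement membrane collagens 0.21 and 0.13 and the others 0.12 and 0.05, in unstimulated cells and after LPS.

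The medians between genotypes were also taken with arrays left out. Without replicate 2 of *ΔTrspM* cells given LPS, the median was 0.28 over all collagens, 0.91 over fibrillar, 0.31 over basement membrane and 0.06 over other collagens. That omission keeps replicate 2 of control cells given LPS, the lowest there for 9 of 11 fibrillar collagens. With replicate 2 left out of all groups, in a fit with the replicate block, these medians were 0.21, 0.65, 0.21 and 0.05. In unstimulated cells the median over all collagens was -0.08 without replicate 2 of control cells and 0.01 without replicate 3 of *ΔTrspM* cells. It was 0.20 with replicate 2 left out of all groups. With the values as deposited and no scaling between arrays, the median over all collagens after LPS was -0.32, where the median over all genes was itself -0.60.

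In unstimulated cells 10 of 42 collagens were higher in *ΔTrspM* cells in 3 of 3 same-numbered pairs and 4 were lower, against 17.8% and 11.5% of all genes. After LPS 17 were higher and 3 lower, against 18.5% and 12.5% of all genes. Of these 17, 8 were fibrillar (of 11), 3 belonged to the basement membrane (of 8) and 6 were others (of 23). Arrays of *ΔTrspM* and control cells did not overlap for 1 collagen higher and 1 lower in unstimulated cells, against 4.16% and 3.17% of all genes. After LPS they did not overlap for 5 collagens, all higher in *ΔTrspM* cells, against 5.37% of all genes, and for 0 lower, against 3.77%. These 5 were *Col16a1*, *Col12a1*, *Col4a2*, *Col4a1* and *Col1a1*. Without the dim array, replicate 2 of *ΔTrspM* cells given LPS, the arrays did not overlap for 13 collagens higher in *ΔTrspM* cells, against 14.8% of all genes, and for 1 lower, against 7.75%. The 13 included 5 of 11 fibrillar collagens (*Col1a2*, *Col1a1*, *Col5a2*, *Col5a1* and *Col5a3*). For each of these 5 genes replicate 2 was the lowest array of all 4 groups. This count leaves it out of *ΔTrspM* cells given LPS but keeps it in control cells. In the 2 remaining pairs 20 of 42 collagens were higher in both and 8 lower in both, against 30.6% and 22% of all genes. The limma fit without that array still called 0 collagens between genotypes after LPS.

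**Figure D2:**
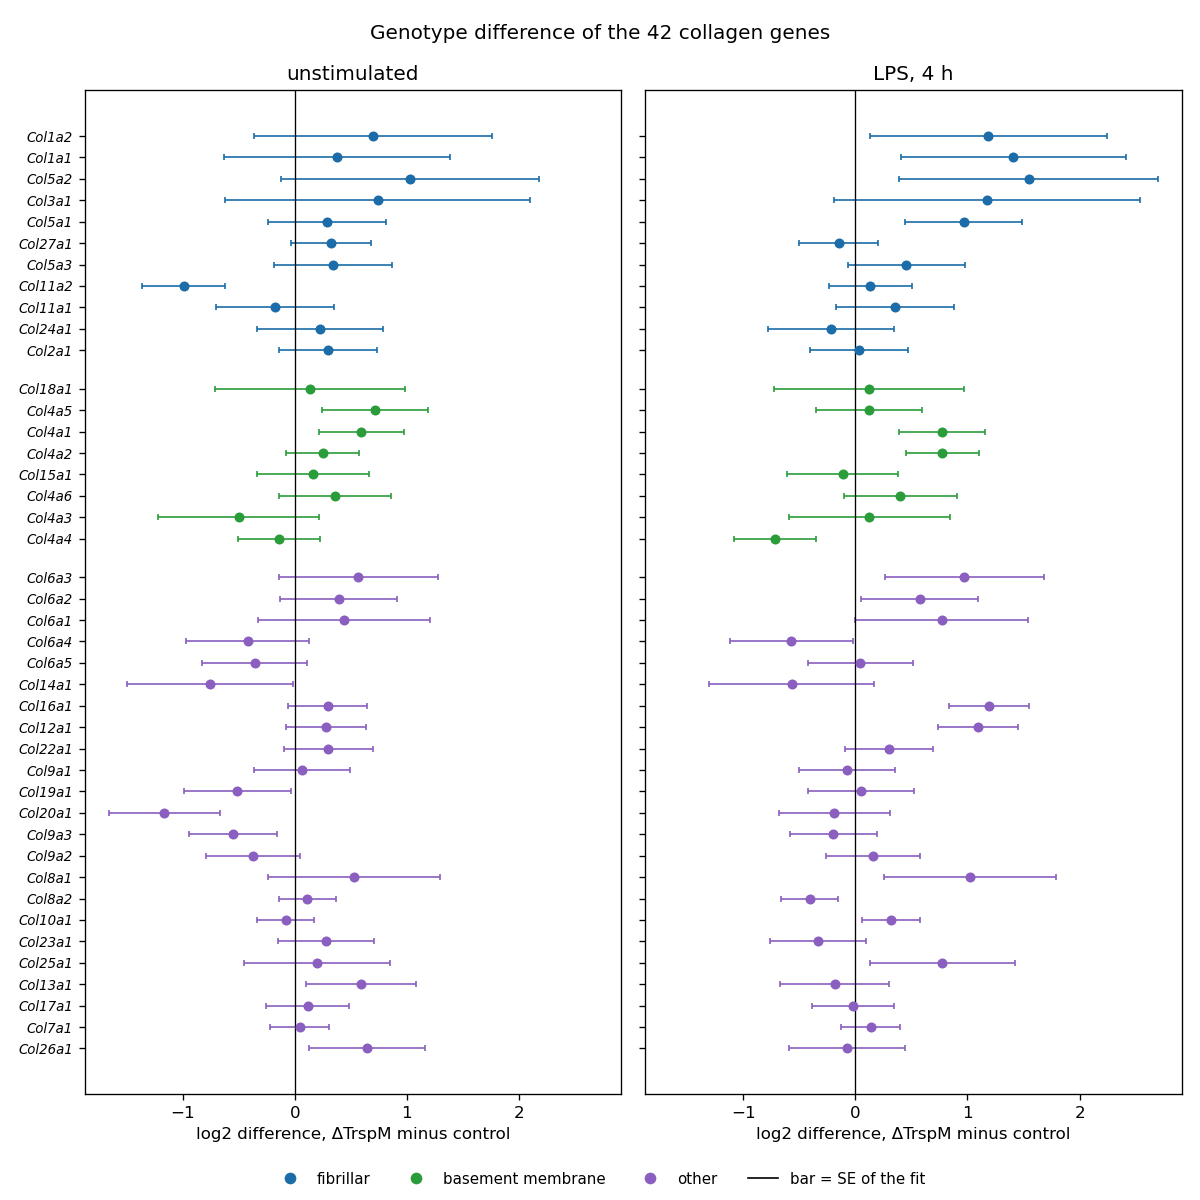
Log2 difference, *ΔTrspM* minus control, of the 42 collagen genes in unstimulated cells (left) and after LPS (right), by class; points are the estimates and bars the standard error of the fit. Most points lie above 0 (30 and 28 of 42, against 56.46% and 55.28% of all genes). The 4 widest bars are those of *Col3a1*, *Col5a2*, *Col1a2* and *Col1a1*, and 0 of 42 pass an adjusted p of 0.05.

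Among the basement membrane collagens, the chains of type IV were the ones with genotype differences in all pairs. *Col4a5* read 9.67, 8.99 and 9.10 in unstimulated *ΔTrspM* cells and 8.94, 8.08 and 8.59 in unstimulated control cells. With LPS *Col4a5* read 9.32, 7.75 and 9.12 in *ΔTrspM* cells and 9.21, 7.69 and 8.92 in control cells. Its arrays were apart in unstimulated cells, with a log2 difference of 0.72 (SE 0.47, adjusted p = 1.00 by limma), and overlapped after LPS. Its second probe set had a log2 difference of 0.23 in unstimulated cells.

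*Col4a1*, a chain found in nearly all basement membranes, read 8.15, 7.47 and 8.81 in unstimulated *ΔTrspM* cells and 7.62, 7.01 and 8.02 in unstimulated control cells. After LPS it read 9.32, 8.43 and 8.60 in *ΔTrspM* cells, all above the 8.06, 7.65 and 8.31 of control cells. The log2 difference was 0.60 in unstimulated cells and 0.77 after LPS (SE 0.38, adjusted p = 0.874 after LPS). *Col4a2*, its partner in the same protomer, had values of 8.52, 8.20 and 8.43 in *ΔTrspM* cells given LPS, above the 7.18, 8.08 and 7.56 of control cells given LPS. That difference was 0.775 (SE 0.33, adjusted p = 0.840). *Col4a1* and *Col4a2* are neighbours that start on opposite strands, and their start windows share 78 bases.

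*Col18a1*, whose protein releases the fragment endostatin, varied the other way from most collagens. It read 10.66, 11.89 and 10.08 in unstimulated *ΔTrspM* cells and 10.26, 12.49 and 9.46 in unstimulated control cells. Given LPS, the gene read 11.48, 12.19 and 10.17 in *ΔTrspM* cells and 11.19, 12.34 and 9.95 in control cells. Replicate 2 was the highest and replicate 3 the lowest in all 4 groups, and it was the only 1 of the 42 collagens with replicate 2 highest in all 4. Its genotype difference was 0.14 in unstimulated cells and 0.12 after LPS (SE 0.84). *Col15a1*, *Col4a6*, *Col4a3* and *Col4a4* had genotype differences between -0.50 and 0.36 in unstimulated cells and between -0.71 and 0.40 after LPS, and 0 of these 4 had arrays apart.

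The 3 brighter chains of type VI collagen had overlapping genotypes and varied mainly between replicates. *Col6a3* read 8.91, 7.30 and 9.69 in unstimulated *ΔTrspM* cells and 8.70, 6.59 and 8.91 in unstimulated control cells. After LPS it read 9.05, 8.0 and 9.62 in *ΔTrspM* cells and 8.22, 7.42 and 8.12 in control cells. *Col6a1* read 7.81, 6.65 and 9.48 in unstimulated *ΔTrspM* cells and 7.76, 6.31 and 8.56 in unstimulated control cells. Replicate 2 was the lowest of every group for both genes. After LPS *Col6a1* read 8.25, 7.60 and 9.50 in *ΔTrspM* cells and 7.84, 6.89 and 8.31 in control cells. *Col6a2*, its neighbour in the genome, read 7.65, 7.65 and 9.26 in unstimulated *ΔTrspM* cells and 7.87, 6.88 and 8.63 in unstimulated control cells, and 8.80, 8.46 and 9.59 in *ΔTrspM* cells and 8.40, 8.01 and 8.72 in control cells given LPS. After LPS the genotype differences of these 3 chains were 0.97 (SE 0.71) for *Col6a3*, 0.77 (SE 0.77) for *Col6a1* and 0.57 (SE 0.52) for *Col6a2*, each with 3 of 3 pairs higher and an adjusted p of at least 0.94. *Col6a4* and *Col6a5* had mean log2 signals of 5.41 and 5.02.

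The smallest p-values between genotypes after LPS belonged to FACITs, which attach to the surface of fibrils. *Col16a1* read 8.10, 7.54 and 8.38 in *ΔTrspM* cells given LPS, above the 7.02, 6.97 and 6.45 of control cells given LPS. The log2 difference was 1.19 (SE 0.35, 2.28-fold), with an adjusted p of 0.634 by limma and 0.299 with the replicate block. In unstimulated cells *Col16a1* read 7.22, 6.59 and 7.81 in *ΔTrspM* cells and 7.01, 6.41 and 7.32 in control cells, which overlapped. *Col12a1* read 7.03, 7.83 and 7.20 in *ΔTrspM* cells given LPS, above the 5.51, 6.58 and 6.71 of control cells given LPS, a log2 difference of 1.09 (SE 0.36, adjusted p = 0.707). Its highest value was on the dim array, without which the difference was 0.85 (adjusted p = 0.697). In unstimulated cells it read 6.82, 6.70 and 6.99 in *ΔTrspM* cells and 6.59, 6.04 and 7.03 in control cells. Its other 3 probe sets had differences after LPS of 0.39, 0.02 and 0.25.

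*Col14a1*, a FACIT of skin and tendon, had lower estimates in *ΔTrspM* cells under both stimuli. It read 7.38, 6.33 and 8.47 in unstimulated *ΔTrspM* cells and 8.22, 7.47 and 8.75 in unstimulated control cells, lower in 3 of 3 pairs with a log2 difference of -0.76 (SE 0.74, adjusted p = 1.00). After LPS it read 7.87, 5.68 and 8.22 in *ΔTrspM* cells and 7.85, 6.85 and 8.77 in control cells, a difference of -0.57. The difference was 0.22 without replicate 2 of *ΔTrspM* cells, with replicate 2 of control cells kept. In the same-numbered pairs of replicates 1 and 3 it was 0.02 and -0.55. *Col20a1* had the lowest genotype estimate of all 42 in unstimulated cells. It read 5.70, 4.95 and 5.15 in unstimulated *ΔTrspM* cells, all below the 5.81, 6.47 and 6.99 of unstimulated control cells, a log2 difference of -1.16 (SE 0.50, adjusted p = 1.00). Its values after LPS were 6.75, 6.25 and 4.57 in *ΔTrspM* cells and 6.17, 6.21 and 5.75 in control cells, and the 3 other probe sets of the gene had unstimulated differences between -0.12 and 0.31.

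Apart from *Col19a1*, which is described with the response to LPS, the other 13 collagens outside the fibrillar and basement membrane classes were FACITs, short-chain, transmembrane and anchoring collagens. *Col8a1*, a network collagen of vessel walls and the cornea, had a genotype difference of 1.02 after LPS (SE 0.77) with 3 of 3 pairs higher, and an adjusted p of 0.944. *Col25a1* had a difference of 0.78 after LPS (SE 0.65). *Col7a1*, which forms the anchoring fibrils of skin, had differences of 0.04 in unstimulated cells and 0.14 after LPS (SE 0.26). *Col10a1*, the collagen of hypertrophic cartilage, had a mean log2 signal of 4.41 over the 12 arrays, near the floor of the scale.

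Replicate number accounted for more of the variation of fibrillar collagens than genotype or LPS did. The median share of a gene's sum of squares taken by the replicate number was 57.3% over the 11 fibrillar collagens, 55.9% over type VI chains, 32.2% over basement membrane collagens, 22.5% over the other 23 and 17.0% over all genes. For the fibrillar collagens the genotype took 6.12% and LPS 1.06%, against 3.30% and 20.8% over all genes. The share of the replicate number was 86.6% for *Col3a1*, 76.8% for *Col5a2*, 73.5% for *Col1a2* and 88.5% for *Col18a1*, against 1.13% for *Col27a1*. Replicate 2 was the lowest in all 4 groups for 14 of 42 collagens (33.3%), for 8 of 11 fibrillar collagens (72.7%) and for 11.5% of all genes. Before normalization, replicate 2 was also the dimmest array of each group. Its mean signal was 575 and 733.8 in unstimulated *ΔTrspM* and control cells, and 199.7 and 492.1 in those given LPS. The part of array brightness in this pattern was not tested. The SD between replicates, as a median over the fibrillar collagens, was 0.91 in unstimulated *ΔTrspM* cells and 0.83 in unstimulated control cells, against 0.27 and 0.31 over all genes.

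**Figure D3:**
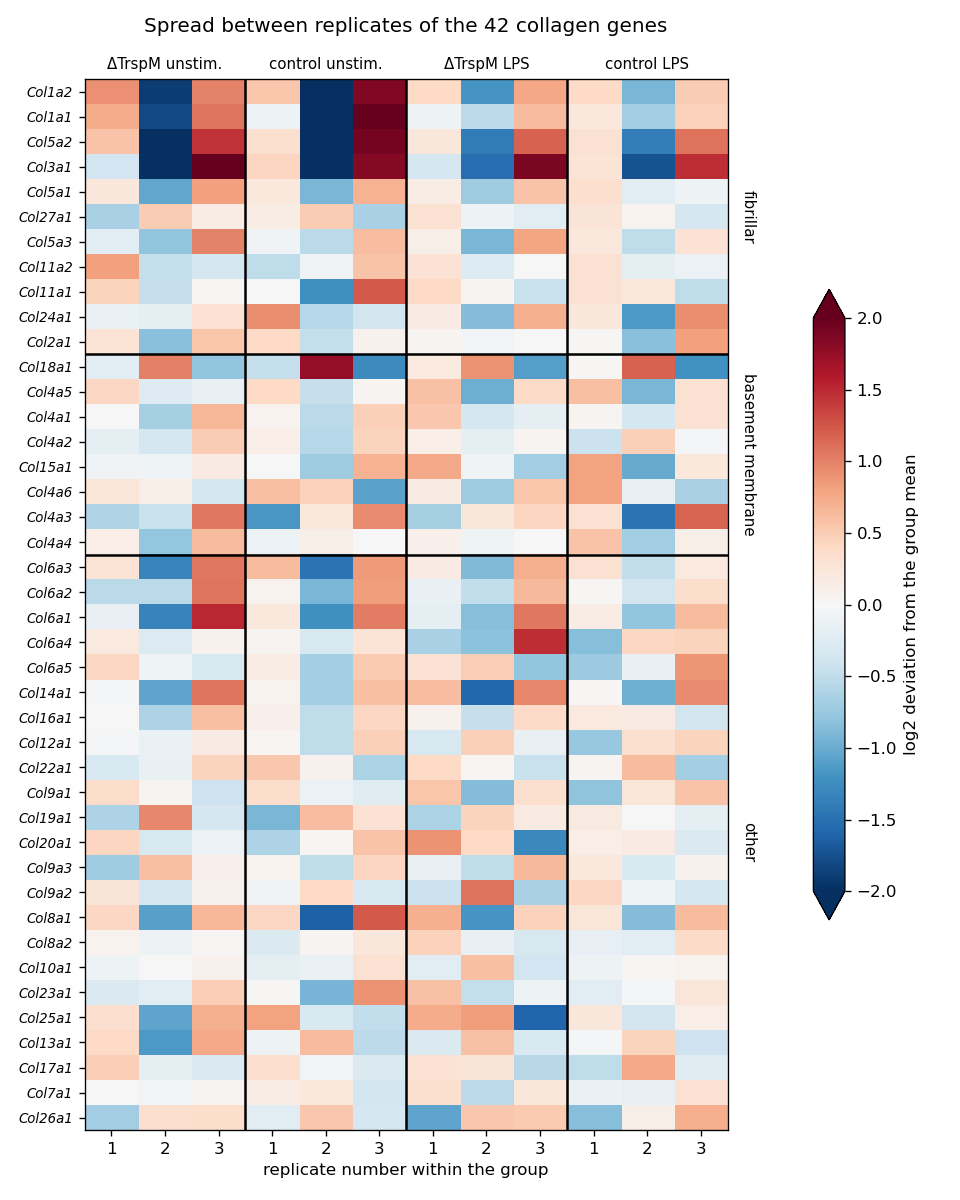
Deviation of each array from the mean of its group, on the log2 scale (color), for the 42 collagen genes (rows) on the 12 arrays (columns, by group and replicate number). Replicate 2 is the lowest in all 4 groups for 8 of 11 fibrillar collagens, and *Col18a1* runs the other way.

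Markers of stromal fibroblasts varied with the replicate number too, as did those of some other cell types. Of 16 markers listed, 16 were measured, and 7 had a mean log2 signal under 6. Their mean log2 signal on replicates 1, 2 and 3 was 6.49, 5.93 and 6.88 in unstimulated *ΔTrspM* cells and 6.29, 5.49 and 6.29 in unstimulated control cells. After LPS it was 7.05, 6.46 and 7.15 in *ΔTrspM* cells and 6.72, 5.99 and 6.51 in control cells. By this mean, replicate 2 was the lowest in each group, and each *ΔTrspM* array was higher than its same-numbered control. The mean over the fibrillar collagens was also lowest on replicate 2 in each group, at 7.59, 6.34 and 8.12 in unstimulated *ΔTrspM* cells and 7.27, 5.94 and 7.98 in unstimulated control cells, and at 8.25, 7.42 and 8.63 in *ΔTrspM* cells and 7.73, 6.81 and 7.88 in control cells given LPS. The summed signal of the fibroblast markers ranged over 891.7 to 3386 in unstimulated *ΔTrspM* cells and 561.2 to 1824 in unstimulated control cells, and over 2377 to 5412 in *ΔTrspM* cells and 3510 to 4608 in control cells given LPS. The sum differed from the mean in control cells given LPS, where replicate 2 was the highest (4608). It lay above the 2377 of replicate 2 of *ΔTrspM* cells given LPS. In the other groups replicate 2 had the lowest sum. Between genotypes 0 of the 16 passed an adjusted p of 0.05, 1 had an unadjusted p under 0.05 (*Fbln2*, higher after LPS), and the median log2 difference was 0.46 in unstimulated cells and 0.38 after LPS. With LPS 1 of 16 passed in each genotype, *Pdgfrb*, the receptor for platelet-derived growth factor on mesenchymal cells. It rose by 2.99 in *ΔTrspM* cells and 4.45 in control cells on the log2 scale (SE 0.58). The sums of the groups given LPS include this rise, and its part in them was not tested. The part of stromal fibroblasts in the collagen signals was not tested.

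Other cell types that a marrow culture could hold were read from their own lists. The mean log2 signal of the neutrophil, mast cell, and smooth muscle and pericyte lists was also lowest on replicate 2 in all 4 groups. That of the other cell types was not lowest there in every group. Osteoblast markers (5 of 8 measured) had summed signals of 245.2 to 811.8 in unstimulated *ΔTrspM* cells and 147.8 to 2088 in unstimulated control cells. Their highest array was replicate 1 in unstimulated *ΔTrspM* cells and replicate 3 in unstimulated control cells, while *Col1a1* was highest on replicate 3 in both. After LPS they summed to 301.4 to 733.2 in *ΔTrspM* cells and 261.4 to 329.0 in control cells. Smooth muscle and pericyte markers (8 of 8) summed to 1936 to 6781 in unstimulated *ΔTrspM* cells and 1094 to 3603 in unstimulated control cells. After LPS the sums were 2300 to 7881 in *ΔTrspM* cells and 1207 to 2320 in control cells. Chondrocyte (7 of 7), endothelial (9 of 9), epithelial (7 of 7) and mast cell markers (7 of 7) summed to at most 297.4, 957.4, 753.7 and 543.0 on any array. Neutrophil markers (7 of 8) summed to 4668 to 19200 and adipocyte markers (5 of 6), which include genes that macrophages use, to 14950 to 19800. For the genotype 0 genes of these lists passed an adjusted p of 0.05 by limma. At an unadjusted p under 0.05 there were 0 in unstimulated cells, and after LPS 2 higher and 2 lower smooth muscle and pericyte genes (*Tagln* had 3.03, SE 1.00), 1 lower epithelial gene (*Krt8*) and 1 higher macrophage core gene (*Lyz2*, 0.44, SE 0.18). With LPS *Camp*, a granule peptide of neutrophils, rose in both genotypes, and in *ΔTrspM* cells *Kdr* (endothelial), *Cd14* and *Spi1* (macrophage core) rose and *Krt8* fell. The part of these cells in the collagen signals was not tested.

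LPS raised 4 collagens in *ΔTrspM* cells and 1 in control cells, and lowered 0 in either. In *ΔTrspM* cells 7.29% of all genes were called higher and 8.51% lower with LPS, and in control cells 7.09% and 8.54%, beside which the collagens called higher were 4 of 42 (9.52%) in *ΔTrspM* cells, near the share of all genes, and 1 of 42 (2.38%) in control cells, below it. At an unadjusted p under 0.05 there were 6 collagens in *ΔTrspM* cells (5 higher, 1 lower) and 3 in control cells (3 higher, 0 lower). Of all 18193 genes, 2295 were higher and 2890 lower at that limma threshold in *ΔTrspM* cells, and 2198 higher and 2917 lower in control cells. The share of collagens higher in *ΔTrspM* cells was thus near that of all genes. The share higher in control cells, and the shares lower in both, were below it. The median log2 difference, LPS minus unstimulated, over the 42 collagens was 0.33 in *ΔTrspM* cells and 0.11 in control cells, against -0.03 and -0.05 over all genes. By class, fibrillar, basement membrane and other collagens had medians of 0.26, 0.50 and 0.32 in *ΔTrspM* cells and 0.07, 0.32 and 0.06 in control cells. Without replicate 2 of *ΔTrspM* cells given LPS, the medians in *ΔTrspM* cells were 0.59 over all, 0.89 over fibrillar, 0.62 over basement membrane and 0.39 over other collagens. That omission keeps replicate 2 of unstimulated *ΔTrspM* cells. With replicate 2 left out of all groups, in the blocked fit, these medians were 0.22, 0.10, 0.48 and 0.21.

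*Col27a1*, a fibrillar collagen of cartilage and other tissues, rose most of all collagens, in both genotypes. In *ΔTrspM* cells it read 9.96, 9.54 and 9.45 after LPS and 5.46, 6.61 and 6.26 without. In control cells it read 10.06, 9.87 and 9.46 after LPS and 5.93, 6.29 and 5.14 without. All LPS arrays were far above all unstimulated arrays. The log2 difference was 3.54 in *ΔTrspM* cells (SE 0.35, 11.6-fold, adjusted p = 9.28e-05 by limma) and 4.01 in control cells (SE 0.35, 16.1-fold, adjusted p = 3.69e-05). The second probe set of the gene had differences of 2.55 and 2.12. The response did not differ between genotypes beyond its error (interaction -0.47, SE 0.50). The call held in 12 of 12 fits that left out 1 array, in both genotypes. Of the 4 collagens called with LPS, the promoter windows of *Col27a1*, printed above, and *Col4a2* hold the NF-kappaB consensus, and that of *Col11a2* does not. *Col19a1* was not among the genes with a match, and not all collagens had a window. *Col6a2*, *Col6a4*, *Col9a1* and *Col9a2*, whose windows also hold the consensus, were not called with LPS.

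*Col11a2* rose in *ΔTrspM* cells, where it read 7.76, 7.19 and 7.46 after LPS and 6.07, 4.78 and 4.91 without. In control cells it read 7.64, 7.16 and 7.22 after LPS and 5.73, 6.18 and 6.82 without, again with no overlap. The log2 difference was 2.22 in *ΔTrspM* cells (SE 0.37, 4.65-fold, adjusted p = 0.00231) and 1.09 in control cells (SE 0.37, 2.13-fold, adjusted p = 0.0704). After LPS the genotypes lay side by side, and without it the *ΔTrspM* array was the lower one in 2 of 3 same-numbered pairs. The difference between the 2 responses was 1.12 (SE 0.52), and no collagen passed the interaction test (0 of 42 by limma, 0% of all genes, adjusted p = 1.00 for *Col11a2*), nor did any at an unadjusted p under 0.05. In control cells *Col11a2* passed the threshold with a pseudocount of 64 (adjusted p = 0.0352), with dim genes left out (0.0448), and without replicate 3 of unstimulated control cells (0.0457) or replicate 1 of unstimulated *ΔTrspM* cells (0.0329). In *ΔTrspM* cells its call held in 12 of 12 fits that left out 1 array, and it was lost when arrays were not scaled (1.27, adjusted p = 0.117), in the blocked fit without any array of replicate 2 (2.12, 0.0539) and by the methods' t-test after adjustment (0.0718).

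*Col4a2* read 8.52, 8.20 and 8.43 after LPS and 6.94, 6.78 and 7.62 without in *ΔTrspM* cells, which did not overlap. In control cells it read 7.18, 8.08 and 7.56 after LPS and 7.00, 6.29 and 7.31 without, which did. The log2 difference was 1.27 in *ΔTrspM* cells (SE 0.33, adjusted p = 0.0223) and 0.74 in control cells (SE 0.33, adjusted p = 0.162), with an interaction of 0.53 (SE 0.46). Its call in *ΔTrspM* cells held in 8 of 12 fits that left out 1 array. It was lost without replicate 1 (1.18, adjusted p = 0.0847) or 2 (1.10, 0.0823) of unstimulated *ΔTrspM* cells and without replicate 1 (1.20, 0.0620) or 3 (1.24, 0.0584) of *ΔTrspM* cells given LPS. It was also lost when arrays were centred on their medians (0.78, 0.125) or not scaled (0.08, 0.947). *Col4a1*, read from a probe set of its own, had LPS differences of 0.64 in *ΔTrspM* cells and 0.46 in control cells (SE 0.38) and was not called.

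*Col19a1*, a FACIT of muscle and brain, read 6.36, 7.45 and 7.17 after LPS and 4.77, 6.35 and 5.06 without in *ΔTrspM* cells. In control cells it read 7.13, 6.96 and 6.75 after LPS and 5.0, 6.52 and 6.20 without. The arrays were apart in both genotypes, narrowly in *ΔTrspM* cells, and the log2 difference was 1.60 in *ΔTrspM* cells (SE 0.48, adjusted p = 0.0425) and 1.04 in control cells (SE 0.48, adjusted p = 0.181). The call in *ΔTrspM* cells held in 4 of 12 fits that left out 1 array. The 8 arrays whose omission ended it were replicates 1 (1.29, adjusted p = 0.162) and 3 (1.43, 0.129) of unstimulated *ΔTrspM* cells, replicates 2 (1.37, 0.137) and 3 (1.51, 0.106) of *ΔTrspM* cells given LPS, replicate 3 of unstimulated control cells (0.0537) and replicates 1, 2 and 3 of control cells given LPS (0.0576, 0.0535 and 0.0550). The other 2 probe sets of the gene had differences of 0.19 and 0.24 in *ΔTrspM* cells, and their mean with the first, 0.67, was not called (adjusted p = 0.192).

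*Col5a3*, the third chain of type V collagen, was called only when the replicate number was in the fit. It read 8.49, 7.46 and 9.16 after LPS and 7.09, 6.50 and 8.30 without in *ΔTrspM* cells. In control cells it read 8.13, 7.40 and 8.21 after LPS and 6.88, 6.41 and 7.58 without. Each LPS array was above its same-numbered unstimulated array in both genotypes, while the groups overlapped. The log2 difference was 1.07 in *ΔTrspM* cells (SE 0.52) and 0.96 in control cells (SE 0.52), with adjusted p-values of 0.209 and 0.264. With the replicate block the standard error was 0.23 and the adjusted p 0.0107 in *ΔTrspM* cells and 0.0175 in control cells, where 9.28% and 9.15% of all genes were called higher. It was the only collagen whose call the block changed.

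**Figure D4:**
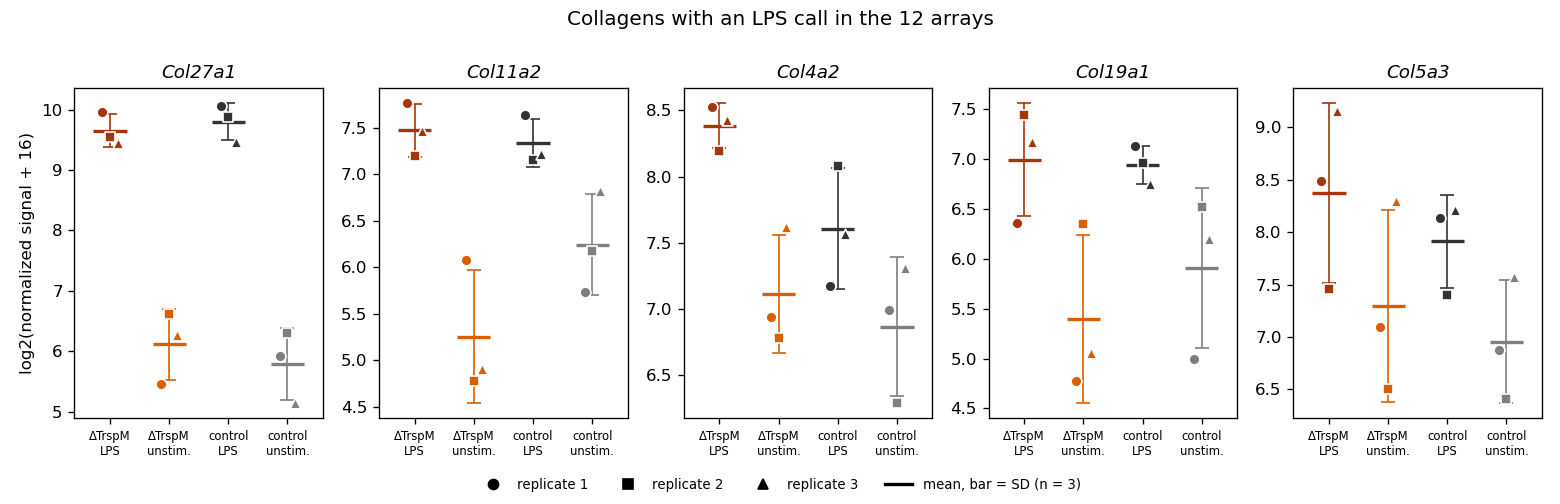
Log2(normalized signal + 16) of *Col27a1*, *Col11a2*, *Col4a2*, *Col19a1* and *Col5a3* on the 12 arrays, with LPS left of unstimulated cells in each genotype; each symbol is 1 array, the thick line the mean and the bar the SD (n = 3). *Col27a1* was higher by 3.54 (*ΔTrspM*) and 4.01 (control) on the log2 scale with LPS, and the arrays of *Col5a3* overlap.

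The leading fibrillar collagens showed no such response. The LPS difference was -0.03 in *ΔTrspM* cells and -0.52 in control cells for *Col1a2* (SE 1.06), 0.64 and -0.40 for *Col1a1* (SE 1.00), 0.18 and -0.33 for *Col5a2* (SE 1.15), 0.51 and 0.07 for *Col3a1* (SE 1.36) and 0.26 and -0.42 for *Col5a1* (SE 0.52). Each of these differences was smaller than its standard error. *Col8a2* had the lowest p of the collagens with lower values after LPS in *ΔTrspM* cells, with a difference of -0.60 (SE 0.25, adjusted p = 0.148). Without replicate 1 of *ΔTrspM* cells given LPS it passed, at -0.83 (adjusted p = 0.0489). *Col20a1* passed without replicate 3 of *ΔTrspM* cells given LPS, at 1.24 (adjusted p = 0.0499), and *Col13a1*, a transmembrane collagen, passed at -1.68 (adjusted p = 0.0156) in *ΔTrspM* cells in the blocked fit without any array of replicate 2.

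Genes that make, finish, bind and degrade collagen were read from lists. Of 20 measured genes for the folding and hydroxylation of collagen chains, 0 were called between genotypes, 2 had an unadjusted p under 0.05 under each stimulus, and the median log2 difference was 0.11 in unstimulated cells and 0.19 after LPS. The smallest p after LPS was that of *P4ha2*, a catalytic subunit of prolyl 4-hydroxylase, with a difference of 0.96 (SE 0.27, adjusted p = 0.576), and it was 0.78 in unstimulated cells. *P3h4*, at 1.29 (SE 0.56), and *Serpinh1*, the collagen chaperone HSP47, at 1.51 (SE 0.88), followed. With LPS 0 of 20 were called in *ΔTrspM* cells and 1 in control cells, *Plod2*, a lysyl hydroxylase, which rose by 1.02 (SE 0.25, adjusted p = 0.0163).

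Of 13 measured genes for procollagen processing and crosslinking, 0 were called between genotypes (1 at an unadjusted p under 0.05, after LPS), and 12 of 13 had estimates above 0 after LPS (median 0.42), against 6 of 13 in unstimulated cells (median -0.02). Of all genes, 55.28% had estimates above 0 after LPS and 56.46% in unstimulated cells. *Loxl1*, a lysyl oxidase that crosslinks fibers, had a difference of 1.67 after LPS (SE 0.76, adjusted p = 0.860) and *Tll1*, a procollagen proteinase, one of 0.88 (SE 0.23, adjusted p = 0.554). *Tll1* fell with LPS in control cells, by 0.88 on the log2 scale (adjusted p = 0.0244), the only one of the 13 called. This list was also lowest on replicate 2, with a mean log2 signal of 6.48, 5.61 and 7.11 in unstimulated *ΔTrspM* cells and 6.38, 5.56 and 6.89 in unstimulated control cells. The folding and receptor lists were lowest on replicate 2 in every group too, and the protease list was not.

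Of 12 measured collagen receptors and 11 proteases that cleave collagen, 0 were called between genotypes, and 0 had an unadjusted p under 0.05. The receptor with the smallest p after LPS was *Ddr2*, a receptor tyrosine kinase for fibrillar collagen, at 1.17 (SE 0.55, adjusted p = 0.860). With LPS *Itga1*, a collagen-binding integrin chain, rose by 1.38 (SE 0.40, adjusted p = 0.0360) and *Lair1*, an inhibitory collagen receptor of leukocytes, fell by 1.79 (SE 0.42, adjusted p = 0.0135) in control cells, and 0 receptors were called in *ΔTrspM* cells. Among the proteases 2 of 11 rose in both genotypes and 0 fell. *Mmp13*, a collagenase, rose by 2.64 in *ΔTrspM* cells and 2.95 in control cells (SE 0.23, adjusted p = 4.29e-05 and 1.80e-05), and *Mmp14*, a membrane-bound collagenase, by 3.38 and 3.09 (SE 0.65, adjusted p = 0.00519 and 0.00799).

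For 27 of the 42 collagens more than 1 probe set was measured, and all probe sets of a gene had the same sign of the genotype difference in 16 of 27 in unstimulated cells and 18 of 27 after LPS. Those of *Col1a1*, *Col5a1*, *Col5a2*, *Col3a1*, *Col4a1*, *Col6a2* and *Col8a1* all had differences above 0 after LPS. The second probe set of *Col1a1* gave 1.04 after LPS, that of *Col5a2* 1.16 and that of *Col4a1* 1.52. By the RefSeq gene order, 7 pairs of members lie next to each other in the genome, among them *Col3a1* with *Col5a2* and *Col6a2* with *Col6a1*. Both members of these named pairs had replicate 3 highest in all 4 groups, and in none of the other pairs did both members. Replicate 3 was highest in all 4 groups for 9 of 42 collagens and for 1318 of 18193 genes.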

How the data were processed

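RNA of 12 BMDM cultures was hybridised to Affymetrix mouse whole-genome GeneChip arrays. Signal intensities on a linear scale were deposited, after normalization by the authors with the Expression Console software, and the summarization method was not stated in the sources used here. Of 45101 probe sets, 64 controls were dropped. The intensities were quantile normalized, 16 was added and log2 taken. Of the remaining 45037 probe sets, 34945 had 1 gene symbol, 932 several and 9160 none. The probe set with the highest mean log2 signal stood for each of 18193 genes. The 4 groups were fitted in limma 3.58.1 (R 4.3.3), with Benjamini-Hochberg adjustment over all genes and a threshold of 0.05. All adjusted p-values are from limma. The number of arrays limits the precision, since 3 against 3 allow no exact two-sided p below 0.1 for a single gene.

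Same-numbered cultures deviated together from their group means (r of 0.13 to 0.44 in 12 of 12 pairs, all above the required 0.1), so the numbers were taken to pair the cultures, and a fit with the number as a block was the alternative. Members and lists were chosen with earlier results of these data known. Values per array are given for the 5 brightest fibrillar, 3 brightest basement membrane and 4 brightest other collagens, *Col1a1*, *Col5a2*, each member past the threshold in a comparison, and up to 3 members per genotype comparison with the smallest p and arrays that did not overlap. The alternatives were other scalings, pseudocounts of 1 and 64, omission of genes whose mean log2 signal was under 6, the mean of a gene's probe sets, the trend and robust options, only the arrays compared, omission of each array, and the methods' two-tailed Student test at 0.01. A choice of probe set by mean linear signal, and counts without the dim array, were added after seeing the data. The scripts were tested on simulated data. The number of unused columns of per-sample values was 0.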

Additional observations from a re-analysis of the deposited data

How the results depend on the processing

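The genotype gave 0 called collagens under every alternative run, the replicate block included. The block changed the call of *Col5a3* with LPS in both genotypes and no other call, and it gave 2 called collagens in control cells, against 1 without it. The cause of each change below was not tested.

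Without scaling, where the median of all genes moved to -0.60 between genotypes after LPS, -0.73 with LPS in *ΔTrspM* cells and -0.25 in control cells, the medians after LPS between genotypes were -0.3236 over all collagens, -0.5245 over basement membrane and -0.3259 over other collagens. The medians with LPS in *ΔTrspM* cells were then -0.4627 over all, -0.5516 over fibrillar, -0.5646 over basement membrane and -0.3862 over other collagens, and that in control cells -0.1385 over all. Estimates that turned were *Col4a1* -0.0690, *Col4a2* -0.0484, *Col6a1* -0.0494 and *Col6a2* -0.2933 between genotypes after LPS and *Col5a3* -0.0639 with LPS in *ΔTrspM* cells. With dim genes left out, the genotype medians after LPS were 0.5135 over all and 0.4350 over other collagens. With arrays centred on their medians, the LPS median of basement membrane collagens in *ΔTrspM* cells was 0.1397.

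The count called with LPS in *ΔTrspM* cells was 4, and 1 without scaling, 3 by the methods' t-test at 0.01 and 1 by that test after adjustment. In control cells it was 1, and 2 with a pseudocount of 64 or with dim genes left out. *Col19a1* in *ΔTrspM* cells was also lost with a pseudocount of 1 and with only the arrays compared.

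Leaving out 1 array gave 2 to 4 collagens called in *ΔTrspM* cells and 1 to 2 in control cells. The median over all collagens ranged from -0.0832 to 0.3320 between genotypes in unstimulated cells and from 0.1238 to 0.5872 with LPS in *ΔTrspM* cells, and that over fibrillar collagens with LPS in control cells from -0.8756 to 0.7951. Between genotypes in unstimulated cells the estimates ranged from -0.7220 to 1.5255 for *Col1a1*, -0.5101 to 1.6460 for *Col1a2*, -0.4949 to 1.7838 for *Col3a1*, -0.1731 to 0.8100 for *Col5a1*, -0.0858 to 2.0362 for *Col5a2*, -0.3112 to 1.1060 for *Col6a1*, -0.1447 to 0.8102 for *Col6a2* and -0.1710 to 1.2321 for *Col6a3*. The lowest values came without replicate 2 of control cells or replicate 3 of *ΔTrspM* cells. After LPS that of *Col14a1* ranged from -1.0523 to 0.2216. Collagens with a mean log2 signal under 6 (16 of 42) lie near the floor, where the pseudocount shrinks differences.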
